A study of Mus musculus with 9 samples.

Results

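The 9 genes described here encode the normal counterparts of the MLL fusion protein and the proteins through which it acts on transcription. They are Kmt2a, Mllt3, Men1, Psip1, Dot1l, Mllt1, Aff1, Aff4 and Cdk9, listed by name with earlier results of these data known. All 9 were found among the 24756 gene rows of the count table, and all 9 were among the 10215 genes that passed a filter on low counts and were tested. They were measured by 3' mRNA sequencing in a mouse acute myeloid leukaemia line made from foetal liver cells with a pair of retroviral vectors. The MSCV-Luc2-IRES-MLL-AF9 vector expresses the fusion gene MLL-AF9 at all times and is carried by every group, controls included. The TRE-tight-DsRED-IRES-FLT3-ITD vector expresses FLT3-ITD, a mutant kinase receptor that is active without ligand, only while doxycycline is present. The groups were cells kept in 1 µg/mL doxycycline (ON, n = 3 libraries), cells 24 h after the drug was washed out (OFF24, n = 3) and cells 48 h after it (OFF48, n = 3). Because the drug and the transgene left together, loss of doxycycline and loss of FLT3-ITD cannot be told apart. The samples are of 1 cell line, and no label states that replicates are separate cultures. The p-values therefore reflect the spread between these libraries alone, and that spread may be technical.

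MLL, the product of Kmt2a, is a histone methyltransferase that puts methyl groups on lysine 4 of histone H3 and keeps developmental genes such as the Hox genes active in blood progenitors. In MLL-rearranged leukaemia its amino-terminal part, which holds the sites that bind menin (Men1) and, with menin, LEDGF (Psip1), is fused to a partner protein and so is still brought to chromatin. The partners AF9 (Mllt3), ENL (Mllt1), AF4 (Aff1) and its relative AFF4 (Aff4) belong to assemblies that help RNA polymerase II out of its pause near the promoter. The super elongation complex brings in the kinase P-TEFb, whose catalytic subunit is Cdk9, and AF9 and ENL also bind Dot1l, which methylates lysine 79 of histone H3 along transcribed genes. Transcripts of the fusion vector end in vector sequence, so 3' counts of Kmt2a and Mllt3 need not include MLL-AF9.

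The promoters of Aff1 and Dot1l are printed here because these were the members whose level differed from ON at both times, and because the CXXC domain that MLL-AF9 keeps from MLL binds CG dinucleotides that carry no methyl group. Each is the 250 bases before a transcription start in RefSeq on GRCm38.p6, from 5′ to 3′ on the gene's own strand, with every CG in capitals. Aff1 is at chr5:103753912-103754161 and Dot1l at chr10:80754953-80755202, both on the plus strand.
Aff1: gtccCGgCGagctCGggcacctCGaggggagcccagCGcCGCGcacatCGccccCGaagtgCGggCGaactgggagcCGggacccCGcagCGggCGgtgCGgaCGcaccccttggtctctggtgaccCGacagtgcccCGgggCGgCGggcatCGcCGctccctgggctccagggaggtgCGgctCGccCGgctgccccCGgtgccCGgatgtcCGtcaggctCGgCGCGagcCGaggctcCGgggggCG
Dot1l: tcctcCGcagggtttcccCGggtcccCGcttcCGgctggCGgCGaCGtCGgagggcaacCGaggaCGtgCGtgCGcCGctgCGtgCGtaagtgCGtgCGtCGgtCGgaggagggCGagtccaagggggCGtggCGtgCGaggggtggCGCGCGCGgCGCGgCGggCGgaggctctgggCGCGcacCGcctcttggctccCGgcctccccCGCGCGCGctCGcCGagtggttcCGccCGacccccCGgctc
The Aff1 window holds 35 CG dinucleotides and the Dot1l window 44, against a median of 6 over windows of the same length at 32851 mouse starts. By that count Aff1 stood at percentile 97.0 and Dot1l at percentile 99.5 of all starts. RefSeq windows were found for 8 of the 9 members, with 12 starts in all, and 11 of these 12 lay above the median. The others held 37 (Mllt1), 34 (Aff4), 32 (Cdk9) and 29 (Kmt2a) CG dinucleotides, 8 to 10 at the 3 starts of Men1, 20 at the other start of Aff1, and 23 and 4 at the 2 starts of Mllt3. A high CG count was thus shared by members that changed and members that did not pass the test. The 11 of 12 is not a count of separate windows, since the 3 of Men1 overlap each other. The median is over all annotated starts, not those of tested genes alone. The letters CACGTG, which MYC and related factors bind and which read the same on both strands, were in 6.02% of all windows and, among the members, in the window of Aff4. Psip1 was not among the matched genes.

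The shallowest library, OFF48 replicate 2, held 1329296 counts and the deepest, ON replicate 2, 4038456. The 9 members together took 0.0435% to 0.0511% of the counts of a library. Levels are given as normalised read counts, CPM scaled by the TMM method, and the limit that a count of 0 allows (3 counts) lay between 0.737 CPM (ON replicate 2) and 2.25 CPM (OFF48 replicate 2). Reads carry no molecular identifiers in the table, so floors cover counting error only. A 3' library gives roughly a read per transcript end, and the members were not ranked against each other by level. The 12 markers of myeloid cells summed to between 2430 and 2630 CPM in ON, 4330 and 4760 in OFF24 and 6500 and 7360 in OFF48. All had counts in every library. Kit, however, had only 2 to 19 and lay below 3 counts in ON replicate 2 and OFF48 replicate 2. Markers of hepatocytes, erythroid, lymphoid and megakaryocytic cells summed to at most 2.68 CPM and stromal markers to at most 8.16, with Alb, Hbb-bs and Ppbp at 0 in every library. The rise of the myeloid sum came mainly from the granule genes Lyz2, Mpo, Prtn3 and Elane, while Ctsg stayed between 651.9 and 772 CPM and Ptprc between 145.9 and 217.5 CPM over all libraries. Cd34 read 81.6 to 85.0 CPM in ON, 118.7 to 127.2 in OFF24 and 54.5 to 75.0 in OFF48. The part of these markers in the results was not tested. In bulk RNA, fewer cells of a type and less RNA per cell cannot be told apart.

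After FLT3-ITD was switched off, Aff1 rose and Dot1l fell at both times, while Men1, Psip1, Mllt1, Aff4, Cdk9 and Kmt2a did not pass the test at either. At 24 h, 2 of the 9 members were higher (Aff1 and Mllt3), where 17.8% of all tested genes were, and 1 was lower (Dot1l), where 17.4% of all were. Mllt3 passed the filter through 2 libraries of OFF24, 1 of ON and 0 of OFF48, so its call is a description. At 48 h, 1 was higher (Aff1) beside 23.4% of all genes and 1 was lower (Dot1l) beside 23.9%. These shares are those past a Benjamini-Hochberg adjusted p of 0.05 in edgeR's quasi-likelihood test, and with 9 members the counts lie near the background. The libraries of OFF24 and ON did not overlap for 4 members (Kmt2a, Dot1l, Mllt1 and Aff1), and this was so for 49% of all genes. Those of OFF48 and ON did not overlap for 3 (Kmt2a, Mllt1 and Aff1), beside 52.5% of all. The median log2 fold change of the members was -0.17 at 24 h and -0.14 at 48 h, against 0.03 and 0.01 for all genes. Their median size without regard to sign was 0.31 and 0.33, against 0.34 and 0.43 for all genes. Both comparisons use the same ON libraries.

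**Figure D1:**
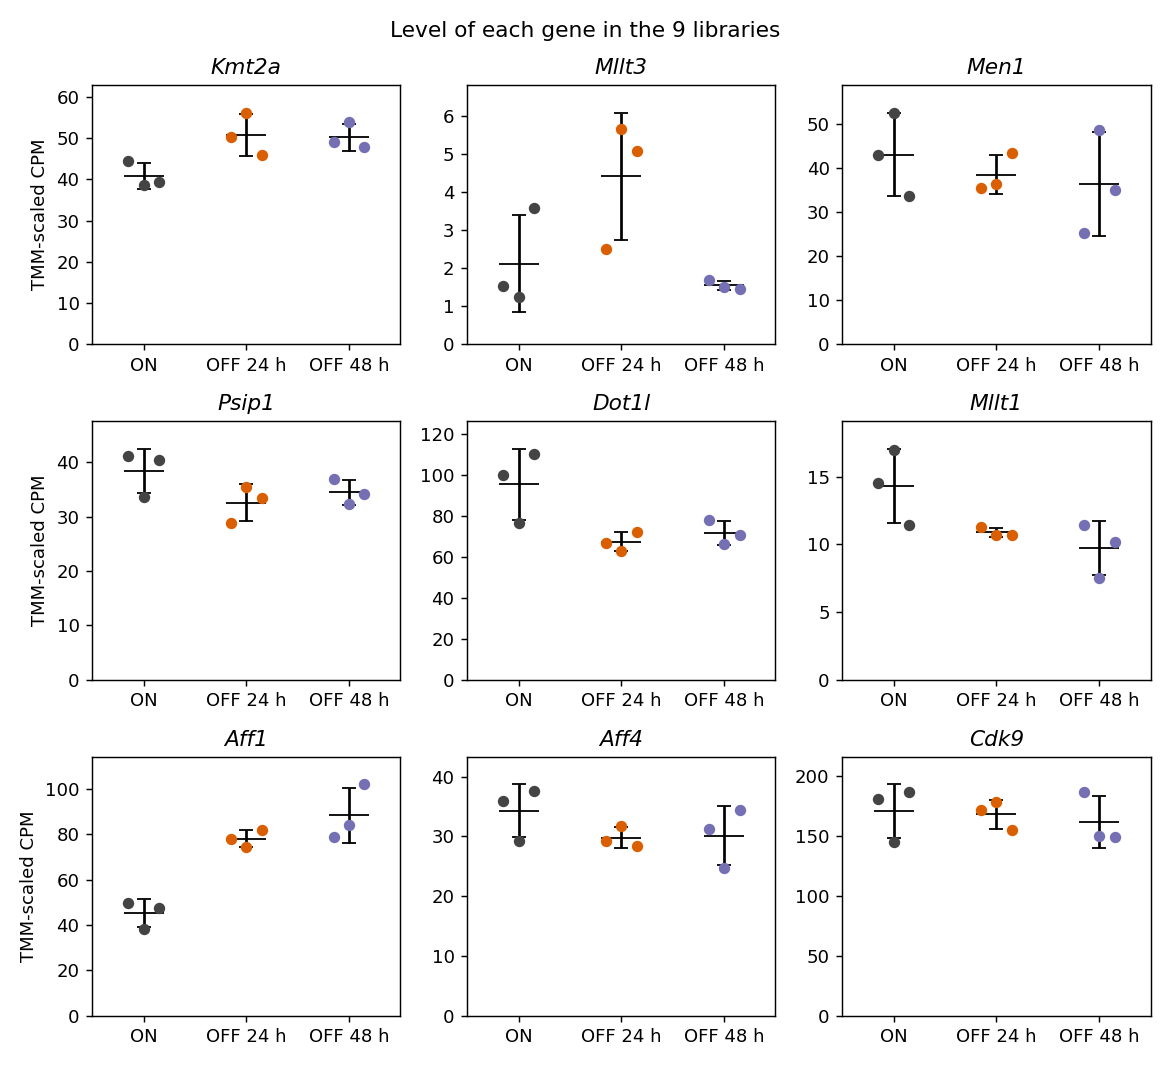
TMM-scaled CPM (vertical axis, from 0, with a scale of its own for each gene) of the 9 genes in ON, OFF 24 h and OFF 48 h (horizontal axis). Points are single libraries and black bars are the mean and SD over n = 3. The ON points of Aff1 (38.1 to 49.7 CPM) lie below all OFF points (74.4 to 102 CPM), and those of Cdk9 overlap in all groups.

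Kmt2a lies on chromosome 9 from 44803355 to 44881296 on the minus strand (mm10, GENCODE M21), has up to 36 exons and encodes the methyltransferase whose amino-terminal part is in the fusion. Its level was 44.4, 38.6 and 39.4 CPM in the ON libraries, 50.2, 56.2 and 45.9 in OFF24 and 49.0, 54.0 and 47.8 in OFF48. Every OFF library was thus above every ON library, from 110 to 174 counts in ON and 72 to 179 in the OFF groups. The fitted difference was 0.31 ± 0.13 on the log2 scale (SE, 95% interval 0.05 to 0.58) at 24 h and 0.29 ± 0.13 (0.01 to 0.56) at 48 h. It did not pass the test over all genes (edgeR adjusted p = 0.0619 and 0.0799). At 24 h it passed with upper quartile scaling (edgeR adjusted p = 0.0354) and with the replicate number as a block (0.0407).

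Mllt3, on chromosome 4 from 87769925 to 88033364 on the minus strand, encodes AF9, the partner in this fusion, whose YEATS domain reads acylated histones. It was close to the limit of detection, with 6, 5 and 10 counts in ON, 6, 18 and 17 in OFF24 and 5, 2 and 5 in OFF48. As levels these were 1.53, 1.23 and 3.58 CPM in ON, 2.51, 5.65 and 5.06 in OFF24 and 1.68, 1.5 and 1.46 in OFF48. The highest values were those of OFF24 replicates 2 and 3, and the lowest OFF24 library lay below the highest ON library. Mllt3 passed the filter through 3 libraries at or above 3.12 CPM, 1 of ON and 2 of OFF24, so its changes are a description of these libraries. The fitted difference was 1.19 ± 0.44 (SE, 95% interval 0.26 to 2.11, edgeR adjusted p = 0.0433) at 24 h and -0.34 ± 0.57 (-1.54 to 0.86, edgeR adjusted p = 0.657) at 48 h. Of 18 alternative settings at 24 h, 9 kept the call, with adjusted p-values from 0.0168 to 0.194. It was lost without ON replicate 1 or 2, without OFF24 replicate 2 or 3, without OFF48 replicate 1 or 3, with DESeq2, with the deposited log2 values and with no filter.

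The adaptors that tie MLL and its fusions to chromatin did not pass the test. Men1 (chromosome 19, 6334979 to 6340891, plus strand) encodes menin, which binds the amino terminus of MLL and is the target of menin inhibitors. It read 42.8, 52.6 and 33.6 CPM in ON, 35.5, 36.4 and 43.5 in OFF24 and 25.2, 48.7 and 35.0 in OFF48. All groups overlapped, and Men1 had the widest spread of the well-counted members, a coefficient of variation of 32.6% in OFF48 and 22% in ON. The difference from ON was -0.17 ± 0.19 (SE, 95% interval -0.57 to 0.23, edgeR adjusted p = 0.516) at 24 h and -0.33 ± 0.20 (-0.75 to 0.09, edgeR adjusted p = 0.18) at 48 h. OFF48 replicate 2, the shallowest library, held the highest OFF48 value, and without it the 48 h difference was -0.52 (edgeR adjusted p = 0.0245).

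Psip1 (chromosome 4, 83455680 to 83486459, minus strand) encodes LEDGF, whose PWWP domain binds nucleosomes methylated on lysine 36 of histone H3. It read 41.1, 33.7 and 40.4 CPM in ON, 28.8, 35.5 and 33.4 in OFF24 and 36.9, 32.2 and 34.1 in OFF48. ON replicate 2 lay within the range of the OFF libraries. The difference was -0.22 ± 0.14 (SE, 95% interval -0.51 to 0.07) at 24 h and -0.14 ± 0.14 (-0.44 to 0.16) at 48 h, with edgeR adjusted p-values of 0.221 and 0.439. Psip1 is the least certain member in what was counted. The gene Snapc3, on the other strand, overlaps its 3' end, and the strand setting of the counting is not given in the sources used here, so reads of the pair cannot be told apart. Snapc3 itself had 12 to 54 counts per library. Within the last 400 bases of Psip1, a stretch of at least 50 aligned bases is also shared, at 95% identity or more, with the annotated gene Gm15773. By the same limits, the 3' ends of the other 8 members were shared with 0 other genes.

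Dot1l, the H3 lysine 79 methyltransferase, fell. The gene spans 80755206 to 80795461 of chromosome 10, plus strand. Its level was 99.7, 76.4 and 110.2 CPM in ON, 66.9, 62.8 and 72.1 in OFF24 and 77.8, 66.0 and 70.6 in OFF48. All OFF24 libraries were below all ON libraries, whereas OFF48 replicate 1 lay just above ON replicate 2. Means were 95.4 ± 17.3 CPM (SD, n = 3) in ON, 67.3 ± 4.66 in OFF24 and 71.5 ± 5.97 in OFF48. The log2 fold change was -0.50 ± 0.13 (SE, 95% interval -0.77 to -0.22, edgeR adjusted p = 0.00637) at 24 h, to a fold of 0.709. At 48 h it was -0.40 ± 0.13 (-0.68 to -0.12, edgeR adjusted p = 0.0188), to a fold of 0.758. The 24 h call was lost with limma on the deposited log2 values (limma adjusted p = 0.0597). The 48 h call was lost there too (0.0633) and without ON replicate 1 (edgeR adjusted p = 0.0701), ON replicate 3 (0.1) or OFF48 replicate 3 (0.0646).

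Mllt1 (chromosome 17, 56892611 to 56935415, minus strand) encodes ENL, the relative of AF9 that shares its YEATS domain. It read 14.5, 16.9 and 11.5 CPM in ON, 11.3, 10.7 and 10.7 in OFF24 and 11.4, 7.50 and 10.2 in OFF48, from 10 to 69 counts. Every OFF library was below every ON library, by a narrow margin at ON replicate 3. The difference was -0.42 ± 0.21 (SE, 95% interval -0.85 to 0.02) at 24 h and -0.52 ± 0.22 (-0.98 to -0.06) at 48 h, with edgeR adjusted p-values of 0.13 and 0.0576. At 48 h it passed without ON replicate 3 (edgeR adjusted p = 0.0276) and with the deposited log2 values (limma adjusted p = 0.044).

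Aff1, the AF4 scaffold of the super elongation complex and itself a fusion partner of MLL, had the smallest adjusted p among the members at both times. The gene spans 103692374 to 103855322 of chromosome 5, plus strand, and the window printed above lies in an intron of an annotated transcript that starts further upstream. Counts were 195, 155 and 133 in ON, 186, 237 and 275 in OFF24 and 235, 112 and 350 in OFF48. Scaled to depth, these were 49.7, 38.1 and 47.6 CPM in ON, 77.8, 74.4 and 81.9 in OFF24 and 78.8, 84.0 and 102 in OFF48. No ON library reached an OFF library. Means were 45.1 ± 6.21 CPM (SD, n = 3) in ON, 78.0 ± 3.77 in OFF24 and 88.3 ± 12.2 in OFF48. The log2 fold change was 0.79 ± 0.13 (SE, 95% interval 0.52 to 1.07, edgeR adjusted p = 0.000134) at 24 h, a 1.73-fold rise. At 48 h it was 0.98 ± 0.13 (0.70 to 1.26, edgeR adjusted p = 6.57e-06), a 1.97-fold rise. Aff1 was called under all 19 alternatives tried at each time.

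Aff4, the other scaffold of the complex, did not pass the test. The gene spans 53350833 to 53421830 of chromosome 11, plus strand. It read 35.96, 29.2 and 37.6 CPM in ON, 29.3, 31.7 and 28.3 in OFF24 and 31.2, 24.7 and 34.4 in OFF48. The groups overlapped, and the difference was -0.19 ± 0.15 (SE, 95% interval -0.51 to 0.12, edgeR adjusted p = 0.336) at 24 h and -0.14 ± 0.15 (-0.46 to 0.19, edgeR adjusted p = 0.496) at 48 h. The upper bound of each interval lies below the lower bound for Aff1. The ratio of Aff1 to Aff4 counts within a library, a measure chosen after the values were seen, was 1.38, 1.3 and 1.27 in ON, 2.66, 2.35 and 2.89 in OFF24 and 2.53, 3.39 and 2.97 in OFF48. The mean ratio went from 1.32 in ON to 2.63 in OFF24 and 2.96 in OFF48. An exact two-sided permutation test gave p = 0.1 for each OFF group against ON, which is the smallest p that 3 libraries against 3 allow. Because the ratio was chosen with these values seen, that p is no added support for the rise of Aff1.

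**Figure D2:**
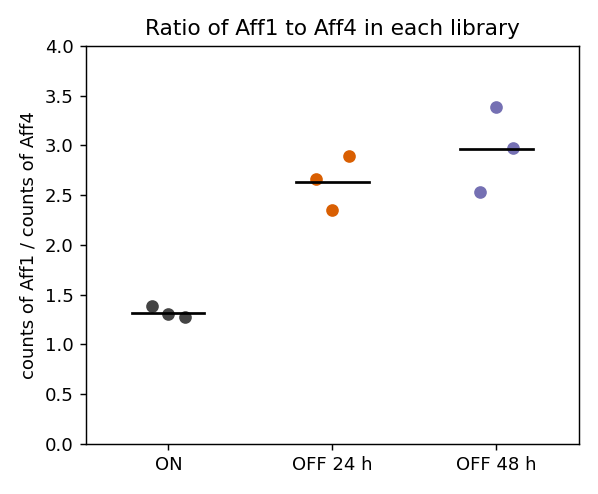
Ratio of Aff1 counts to Aff4 counts (vertical axis, from 0) in each library of ON, OFF 24 h and OFF 48 h (horizontal axis). Points are libraries and lines are group means. The ON points lie between 1.27 and 1.38 and the OFF points between 2.35 and 3.39.

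Cdk9, on chromosome 2 from 32705784 to 32713076 on the minus strand, encodes the kinase of P-TEFb that phosphorylates RNA polymerase II and the pausing factors. It was the member with the most counts, 200 to 709 per library. Its level was 180.8, 145.2 and 186.8 CPM in ON, 172.2, 178.3 and 154.9 in OFF24 and 187.2, 150 and 149.3 in OFF48. The groups covered much the same range. The difference was -0.02 ± 0.12 (SE, 95% interval -0.27 to 0.23, edgeR adjusted p = 0.917) at 24 h and -0.07 ± 0.12 (-0.32 to 0.19, edgeR adjusted p = 0.675) at 48 h. The intervals leave room for a fold between 0.83 and 1.17 at 24 h and between 0.80 and 1.137 at 48 h.

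**Figure D3:**
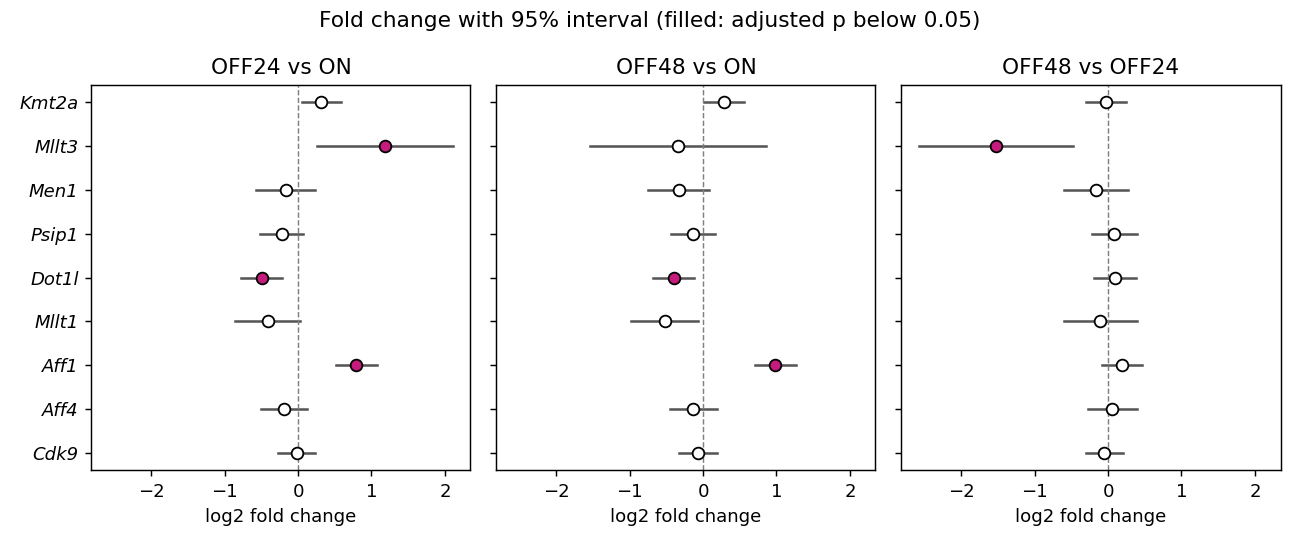
Log2 fold change (horizontal axis) of each gene (vertical axis) with its 95% interval, from the edgeR fit, in OFF24 against ON, OFF48 against ON and OFF48 against OFF24. Filled points passed an adjusted p of 0.05. Aff1 is filled to the right of 0 and Dot1l to the left at both times against ON, and Mllt3 has the widest intervals.

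Between 24 h and 48 h, 0 of the 9 members were higher in OFF48, where 9.99% of all genes were. In the same comparison 1, Mllt3, was lower, where 11.2% of all were. With 9 members these counts lie near the background. The libraries of OFF24 and OFF48 did not overlap for Mllt3 alone among the members, and for 38% of all genes. Mllt3 went from 4.41 ± 1.67 CPM (SD, n = 3) to 1.55 ± 0.12, a log2 fold change of -1.53 ± 0.50 (SE, 95% interval -2.58 to -0.47, edgeR adjusted p = 0.0365). Mllt3 passed the filter through 2 libraries of OFF24, 1 of ON and 0 of OFF48, so this change is a description. The change rests on 41 counts in OFF24 and 12 in OFF48, and 9 of 17 alternatives kept the call. It was lost without ON replicate 1, without OFF24 replicate 2 or 3 and without any 1 of the OFF48 libraries, and with DESeq2 and the deposited log2 values. For Aff1 the difference between the times was 0.19 ± 0.13 (-0.08 to 0.46, edgeR adjusted p = 0.33), and for Dot1l 0.10 ± 0.14 (-0.19 to 0.39, edgeR adjusted p = 0.664). The other 6 had edgeR adjusted p-values from 0.618 (Men1) to 0.91 (Kmt2a). Group means of Aff1 were in the order OFF48, OFF24, ON, those of Kmt2a in the order OFF24, OFF48, ON, those of Mllt3 in the order OFF24, ON, OFF48, and those of Dot1l, Psip1 and Aff4 in the order ON, OFF48, OFF24. Those of Men1, Mllt1 and Cdk9 were in the order ON, OFF24, OFF48. OFF24 and OFF48 stand next to each other in all of these orders except that of Mllt3, and their libraries overlapped for every member but Mllt3.

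Across the 9 libraries the members were correlated in both directions. As a description over libraries that share the 3 conditions, log2 CPM of Aff1 went with that of Kmt2a (Pearson r = 0.77) and against those of Mllt1 (r = -0.778) and Dot1l (r = -0.642). Dot1l went with Psip1 (r = 0.806) and Aff4 (r = 0.718) and against Kmt2a (r = -0.73). Mllt1 went against Kmt2a (r = -0.705), Aff4 with Psip1 (r = 0.744), and Cdk9 against Men1 (r = -0.696). All other pairs of members had an r of smaller size than these. Neither Cdk9 nor Men1 passed the test in any comparison. Among 6062 genes with a mean of at least 20 CPM, those most like Aff1 were Prtn3 (r = 0.985), which encodes the granule protease proteinase 3, and Irf2bp2 (r = 0.981), a transcriptional corepressor. Prtn3 is also among the myeloid markers given above. Those most like Dot1l were Ttll4 (r = 0.962) and Arl6ip4 (r = 0.957), and those most like Kmt2a were Wwp2 (r = 0.973), a ubiquitin ligase, and Inpp5d (r = 0.96), the SHIP phosphatase of blood cells. Mllt1 was most like Yy1 (r = 0.946) and Rad18 (r = 0.933), Psip1 most like Ndufs8 (r = 0.944), Aff4 most like Bola2 (r = 0.93), Men1 most like Gm12504 (r = 0.918) and Cdk9 most like Fubp3 (r = 0.915). For Mllt3 the highest value was that of Xpr1 (r = 0.882), over levels close to the floor.

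The other genes of the pathway were read from 11 lists of cofactors with 79 genes, of which 74 were tested. At 24 h, 12 rose (16.2%) and 10 fell (13.5%), and at 48 h, 17 rose (23%) and 7 fell (9.46%). The falls at 24 h include that of Tasp1, which passed the filter through the ON libraries, where it was highest. Of all tested genes, 17.8% rose and 17.4% fell at 24 h, and 23.4% rose and 23.9% fell at 48 h. Their median log2 fold change was -0.01 at 24 h and 0.12 at 48 h, and all genes had 0.03 and 0.01. From OFF24 to OFF48, 10 rose (13.5%) and 6 fell (8.11%), beside 9.99% and 11.2% of all genes. Log2 fold changes given next carry the SE, and p-values are edgeR's, adjusted over all genes.

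Around Cdk9, 2 genes of the particle that holds P-TEFb inactive, Rn7sk and Hexim1, rose at both times. Of 6 tested genes of the P-TEFb cyclins and the 7SK particle, 3 rose and 0 fell at 24 h, and 2 rose and 0 fell at 48 h. Rn7sk, the gene of the 7SK RNA scaffold, read 20.4, 17.9 and 25.1 CPM in ON, 84.0, 129.3 and 119.4 in OFF24 and 152.6, 198.7 and 168.5 in OFF48. No groups overlapped, and the log2 fold change was 2.42 ± 0.17 (adjusted p = 1.06e-08) at 24 h and 3.04 ± 0.17 (adjusted p = 1.32e-10) at 48 h. 7SK is made by RNA polymerase III and as a rule has no poly(A) tail, so its count in a 3' mRNA library need not follow its amount. Hexim1, which encodes the inhibitor that 7SK brings to P-TEFb, averaged 49.3 ± 6.56 CPM (SD, n = 3) with the drug, 71.6 ± 4.48 in OFF24 and 65.5 ± 1.58 in OFF48. Its log2 fold change was 0.55 ± 0.12 (adjusted p = 0.00156) and 0.42 ± 0.12 (adjusted p = 0.00849). Larp7 (-0.01 ± 0.11, adjusted p = 0.964, and 0.18 ± 0.11, adjusted p = 0.188) and Mepce (0.31 ± 0.14, adjusted p = 0.0971, and -0.05 ± 0.15, adjusted p = 0.825), which bind and cap 7SK, did not pass the test and are named for completeness outside the rule. The cyclin gene Ccnt2 rose at 24 h (0.49 ± 0.14, adjusted p = 0.00918), a call lost without ON replicate 2 or OFF24 replicate 1 and with the deposited log2 values. Ccnt1, the gene of the other cyclin that can pair with CDK9, was at -0.04 ± 0.12 (adjusted p = 0.803) at 24 h.

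Among the other subunits of the super elongation complex, 4 of 7 were tested, since Aff3, Ell3 and Eaf2 had at most 4 counts in a library. Of these 4, 1 fell at 24 h and 2 at 48 h, and 0 rose. Ell2, an elongation factor that AFF4 recruits, read 45.1, 52.3 and 42.6 CPM in ON, 36.4, 32.0 and 32.2 in OFF24 and 23.8, 25.5 and 23.6 in OFF48. Its groups did not overlap. Against ON, its log2 fold change was -0.49 ± 0.13 (adjusted p = 0.00712) at 24 h and -0.96 ± 0.14 (adjusted p = 1.82e-05) at 48 h. Eaf1, which binds the ELL proteins, averaged 60.1 ± 6.84 CPM (SD, n = 3) under the drug, 65.5 ± 7.92 in OFF24 and 32.3 ± 5.53 in OFF48. Its log2 fold change was -0.89 ± 0.15 (adjusted p = 7.85e-05) at 48 h. The scaffold relative Aff2 was at -0.22 ± 0.29 and 0.30 ± 0.28 (adjusted p = 0.593 and 0.397). Ell, the remaining tested subunit and outside the naming rule, was at 0.26 ± 0.25 and 0.16 ± 0.26 (adjusted p = 0.444 and 0.638).

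The next lists hold the factors that keep the polymerase at its pause, the PAF1 complex that MLL also binds, and the BET bromodomain genes. Of all tested genes, 17.8% rose and 17.4% fell at 24 h, and 23.4% rose and 23.9% fell at 48 h. Whether these short lists differ from those shares was not tested. Of 6 DSIF and NELF genes, Supt4a rose at both times (0.86 ± 0.11, adjusted p = 8.39e-06, and 0.73 ± 0.11, adjusted p = 2.99e-05). It read 81.4, 85.5 and 82.0 CPM in ON, 148, 155.7 and 148.6 in OFF24 and 157.7, 136.5 and 119.3 in OFF48, all OFF libraries above all ON libraries. Nelfa, named after its value was seen, was the only one of the 6 that fell at 24 h (-0.39 ± 0.13, adjusted p = 0.0212), a call lost without ON replicate 1 or 3 or OFF24 replicate 2 and with the deposited log2 values. Supt5 did not pass the test (0.27 ± 0.15 and 0.28 ± 0.15, adjusted p = 0.172 and 0.138). Of the 6 PAF1 complex genes, 0 changed at 24 h, and Paf1 alone rose at 48 h (0.60 ± 0.17, adjusted p = 0.00639). Of the 3 BET bromodomain genes, Brd3 alone rose at 48 h (0.41 ± 0.13, adjusted p = 0.0125), and the call was lost without OFF48 replicate 2 and with the deposited log2 values.

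**Figure D4:**
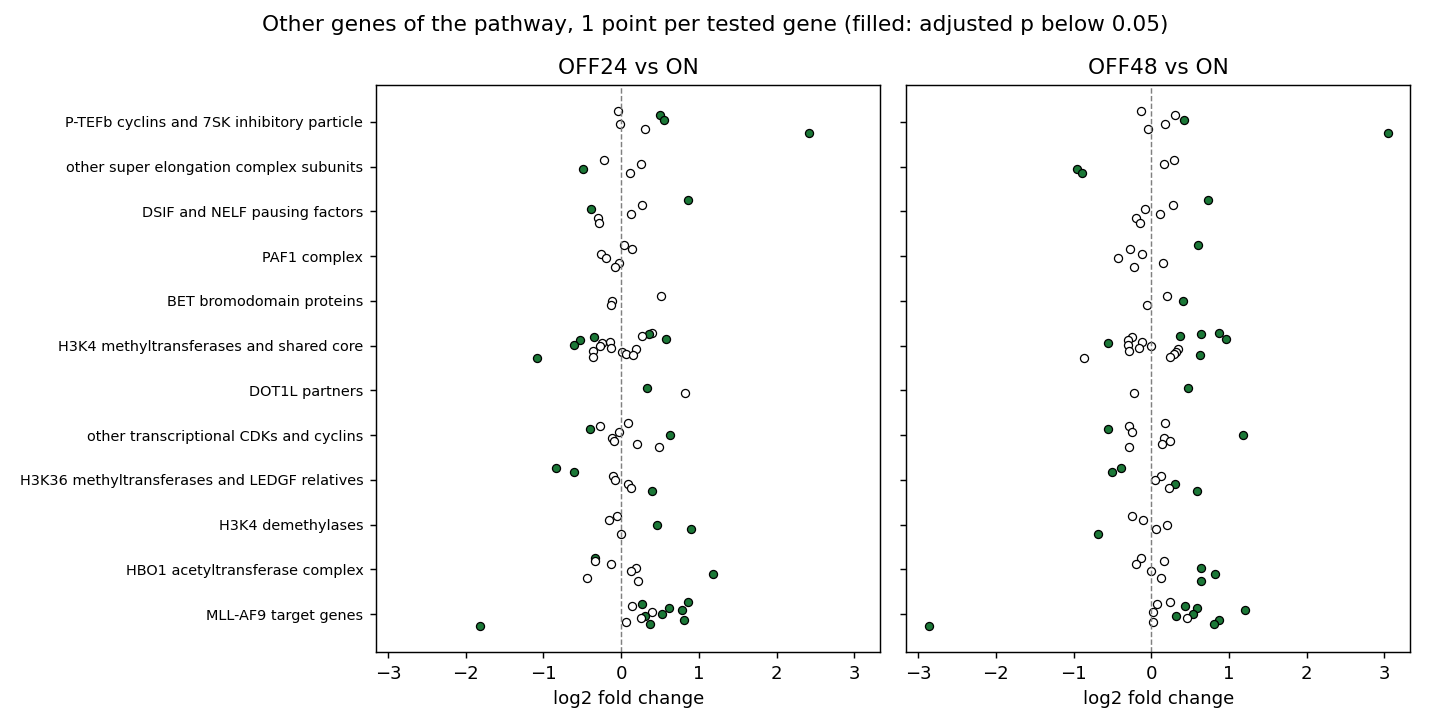
Log2 fold change (horizontal axis) of each tested gene of 12 lists (vertical axis) in OFF24 against ON and OFF48 against ON. Filled points passed an adjusted p of 0.05 in the edgeR fit. The farthest points are Rn7sk to the right (2.42 and 3.04) and Bcl2 to the left (-1.81 and -2.86).

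Among 18 relatives and partners of MLL as an H3 lysine 4 methyltransferase, 2 rose and 4 fell at 24 h, and 5 rose and 1 fell at 48 h. Tasp1, whose value is a description for the reason given below, is counted in the 24 h falls. Setd1b, a methyltransferase of the SET1 family, rose, with means of 127 ± 8.62 CPM (SD, n = 3) under the drug, 190.4 ± 9.23 in OFF24 and 246.8 ± 14.4 in OFF48. Its log2 fold change was 0.58 ± 0.10 (adjusted p = 0.000188) and 0.96 ± 0.10 (adjusted p = 2.55e-07). Paxip1, which encodes a subunit of the MLL3 and MLL4 complexes, rose at 48 h (0.63 ± 0.13, adjusted p = 0.000366). Ash2l, a core subunit that all these enzymes share, fell at 48 h (-0.55 ± 0.11, adjusted p = 0.000249).

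The paralogs of Kmt2a were the other 3 that rose at 48 h, and they are named after their values were seen. Kmt2b was at 0.88 ± 0.23 (adjusted p = 0.00367), Kmt2c at 0.64 ± 0.14 (adjusted p = 0.000641) and Kmt2d at 0.37 ± 0.12 (adjusted p = 0.0137). The call of Kmt2d was lost without ON replicate 2. Kmt2a itself was at 0.29 and did not pass the test, and whether it differs from its paralogs was not tested. At 24 h Kmt2c rose (0.36 ± 0.13, adjusted p = 0.0458), but 6 of 19 alternatives kept that call, and each left-out library ended it except ON replicate 1 and OFF24 replicate 3. The 4 that fell at 24 h, also named after the fact, were the core subunits Dpy30 (-0.60 ± 0.14, adjusted p = 0.00272) and Wdr5 (-0.53 ± 0.15, adjusted p = 0.0129), the methyltransferase Setd1a (-0.35 ± 0.13, adjusted p = 0.0385) and Tasp1 (-1.09 ± 0.41, adjusted p = 0.0451), the protease that cleaves MLL. Dpy30 was called under all 19 alternatives. Wdr5 lost its call without ON replicate 1 or 3 and with the deposited log2 values. Setd1a lost it without any 1 ON library, without OFF24 replicate 2 or 3, and with upper quartile scaling, DESeq2 and the deposited log2 values. Tasp1 had 13, 20 and 11 counts in ON and 3 to 8 in each OFF library, and it passed the filter through the ON libraries, so its value is a description. Its call was lost without any 1 library of ON or OFF24, without OFF48 replicate 1, and with upper quartile scaling, no filter and DESeq2.

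Of the 2 partners listed for Dot1l, Mllt10 rose while Dot1l fell. Mllt10, which encodes AF10, a cofactor of Dot1l and another fusion partner of MLL, averaged 80.5 ± 5.15 CPM (SD, n = 3) under the drug, 101.4 ± 15.9 in OFF24 and 112 ± 8.18 in OFF48. The log2 fold change was 0.34 ± 0.12 (adjusted p = 0.0358) at 24 h and 0.48 ± 0.12 (adjusted p = 0.00345) at 48 h. The 24 h call was lost without any 1 ON library, without OFF24 replicate 3 or OFF48 replicate 1, with DESeq2, with no filter and with the deposited log2 values. Mllt6 had 10, 6 and 5 counts in ON, 9, 11 and 11 in OFF24 and 4, 1 and 8 in OFF48. It passed the filter through the OFF24 libraries, where it was highest, so its values are a description. It did not pass the test (0.82 ± 0.43, adjusted p = 0.141, and -0.22 ± 0.51, adjusted p = 0.753).

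Around Psip1, 7 genes of its relatives and of H3 lysine 36 methyltransferases were tested, of which 1 rose and 2 fell at 24 h, and 2 rose and 2 fell at 48 h. Hdgf, which encodes a growth factor relative of LEDGF with the same PWWP domain, fell (-0.61 ± 0.10, adjusted p = 0.00014, and -0.51 ± 0.10, adjusted p = 0.000428). Hdgfl2, which encodes a relative of LEDGF that shares its integrase-binding domain and is named after its value was seen, also fell (-0.84 ± 0.15, adjusted p = 0.000275, and -0.38 ± 0.15, adjusted p = 0.0419). Its 48 h call was kept in 10 of 19 alternatives and was lost without ON replicate 1 or 2, OFF24 replicate 2 or 3, or OFF48 replicate 1 or 3, and with DESeq2, the deposited log2 values and only the groups compared. Ash1l, a methyltransferase of lysine 36, rose (0.40 ± 0.11, adjusted p = 0.00975, and 0.59 ± 0.12, adjusted p = 0.000329). Its 24 h call was lost without ON replicate 2. Nsd3 rose at 48 h (0.31 ± 0.11, adjusted p = 0.0276), a call lost without ON replicate 1 or 2 or OFF48 replicate 1, with DESeq2 and with no filter.

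Of the 9 other kinases and cyclins of transcription, Cdk19, a kinase of the Mediator complex, rose at both times, and Mnat1, the assembly factor of the CDK7 complex, fell at both. Cdk19 averaged 34.5 ± 1.61 CPM (SD, n = 3) under the drug, 53.3 ± 5.96 in OFF24 and 77.9 ± 5.47 in OFF48 (log2 0.63 ± 0.13, adjusted p = 0.000771, and 1.18 ± 0.13, adjusted p = 3.14e-07). Mnat1 was at -0.40 ± 0.14 (adjusted p = 0.037) and -0.55 ± 0.15 (adjusted p = 0.00504), and its 24 h call was lost without ON replicate 1 or 3 or OFF24 replicate 1 or 3, and with upper quartile scaling, DESeq2 and the deposited log2 values.

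Of the 5 H3 lysine 4 demethylases, 2 rose and 0 fell at 24 h, and 0 rose and 1 fell at 48 h. Kdm5a rose at 24 h (0.46 ± 0.12, adjusted p = 0.00397), as did Kdm5b (0.90 ± 0.15, adjusted p = 0.000113), which is named after its value was seen. Kdm5b then fell from OFF24 to OFF48 (-0.84 ± 0.16, adjusted p = 0.000651). Kdm5c fell at 48 h (-0.69 ± 0.19, adjusted p = 0.00454). Of 8 tested genes of the HBO1 complex, which acetylates histones, 1 rose and 1 fell at 24 h, and 3 rose and 0 fell at 48 h. Ing4 rose at both times (1.18 ± 0.13, adjusted p = 1.28e-06, and 0.83 ± 0.14, adjusted p = 5.2e-05) and Brpf1 at 48 h (0.64 ± 0.13, adjusted p = 0.000392). Meaf6 rose at 48 h (0.64 ± 0.23, adjusted p = 0.0307), a call lost without ON replicate 2 or OFF48 replicate 1 or 3 and with the deposited log2 values. The gene that fell at 24 h, named after its value was seen, was Kat7, the catalytic subunit (-0.33 ± 0.12, adjusted p = 0.0402). Its call was lost without ON replicate 2 or 3 or OFF24 replicate 1 or 3, and with upper quartile scaling, DESeq2 and the deposited log2 values.

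Of 13 tested genes that MLL-AF9 is known to drive, 8 rose and 1 fell at 24 h, where 17.8% and 17.4% of all genes did. At 48 h, 7 rose and 1 fell, where 23.4% and 23.9% of all did. The list was chosen with results of these data known, so the counts are a description. Myb, a transcription factor that these leukaemias need, rose, with means of 348.3 ± 17.6 CPM (SD, n = 3) under the drug, 601.8 ± 24.0 in OFF24 and 802.1 ± 82.2 in OFF48 (log2 0.79 ± 0.10, adjusted p = 5.97e-06, and 1.21 ± 0.10, adjusted p = 1.11e-08). Lmo2, a bridging factor of blood progenitors, rose as well (0.38 ± 0.11, adjusted p = 0.00935, and 0.81 ± 0.11, adjusted p = 4.03e-06), and its 24 h call was lost without OFF24 replicate 1. Of the rises at 24 h, that of Hoxa9 was kept in 12 and that of Jmjd1c in 11 of 19 alternatives, both named after their values were seen. At 48 h the rises of Jmjd1c and of Hoxa10, also named after its value was seen, were each kept in 15 of 19. The OFF48 and ON libraries of Hoxa10 overlapped. Its call was lost without ON replicate 1 or 3 or OFF48 replicate 2 and with the deposited log2 values. The gene that fell was Bcl2, which encodes an inhibitor of apoptosis. It had 57, 45 and 49 counts in ON, 6, 15 and 15 in OFF24 and 4, 1 and 10 in OFF48, where replicate 2 lay below its floor of 3 counts. Outside ON, only OFF24 replicates 2 and 3 reached the cutoff of the filter on low counts. Bcl2 thus passed that filter through the ON libraries, where it was highest, so its values are a description. The fitted values, imprecise at such counts, were lower at both times (-1.81 ± 0.30, adjusted p = 0.000125, and -2.86 ± 0.37, adjusted p = 3.01e-06).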

How the data were processed

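Transcript 3' ends (Lexogen QuantSeq kit, per the labels' protocols) were sequenced in 9 libraries of 1 mouse leukaemia line, grouped by sample title. The submitters' processing notes name mm10, HISAT2 2.0.4, featureCounts, limma 3.42.2 and R 3.6.1 among others, with no role given. For the annotation, the strand setting and multimapping reads, nothing is given in the sources used here. Raw read counts per gene, not normalised, were deposited, with a further table from the authors of log2 expression values, which per its name is normalised by voom and limma and which served only as an alternative.

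The tests used R 4.3.3 with edgeR 4.0.16: filterByExpr by group, TMM scaling, and a robust quasi-likelihood model with a mean per group over all 9 libraries (6 residual degrees of freedom). P-values were adjusted by Benjamini-Hochberg over the 10215 tested genes at 0.05. The SE is the size of the log2 fold change over the square root of the F statistic, and the intervals are at 95%. The script was tested on simulated data. No replicates were identical (chi-square over degrees of freedom of 1.99 to 6.99 within groups), and the common biological coefficient of variation was 0.105.

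The members, the lists and the rule for naming genes were chosen with earlier results of these data known. The rule names all members, up to 3 genes of each list with the smallest p at 48 h, and for each member the genes most like it by Pearson r of log2 CPM (prior count 2). Called list genes outside it are marked in the text. Positions are from GENCODE M21 and promoters from RefSeq GRCm38.p6. The alternatives were 10 other settings (scaling, filter, DESeq2 1.42.0, limma-voom with limma 3.58.1, limma on the deposited log2 values, only the groups compared, a replicate block) and leaving out each of the 9 libraries. Trying them on list genes was added after seeing the data.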

Additional observations from a re-analysis of the deposited data

Results flagged for a closer look

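Mllt3 is listed because its fitted level differed between the 2 OFF times. The log2 fold change from OFF24 to OFF48 was -1.53 (edgeR adjusted p = 0.0365), with group means of 4.41 and 1.55 CPM. The gene passed the filter through 2 libraries of OFF24, 1 of ON and 0 of OFF48, and a fit of only OFF48 and OFF24 left it untested, so the value is a description of these libraries. It rests on 2 to 18 counts per library, and depth differs between the groups, with OFF48 replicate 2 the shallowest at 1329296 counts. The part of depth in this result was not tested.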

How the results depend on the processing

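Of the members' values recomputed under the alternatives, 481 stayed on the same side of the threshold, 22 lost a call, 5 gained one and 0 changed sign while called. Members higher in OFF24 than ON numbered 1 with no filter on low counts, with a filter of at least 5 CPM in 3 libraries, with DESeq2 and with the deposited log2 values, and 1 to 2 when a library was left out. Members lower in OFF24 than ON numbered 0 with the deposited log2 values. Members lower in OFF48 than ON ranged from 0 to 2 when a library was left out. Members lower in OFF48 than OFF24 numbered 0 with the 5 CPM filter, DESeq2, the deposited log2 values and only the groups compared, and 0 to 1 when a library was left out. The stricter filter, and the fit of only OFF48 and OFF24, leave Mllt3 untested. Of the other cases the cause was not tested. Among listed cofactors and targets, 2956 values stayed, 164 lost a call and 63 gained one.

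Same-numbered libraries were not treated as pairs, since not every same-number correlation of deviations was over 0.1: 5 of 9 were (-0.0149 to 0.406), and 5 were the best match. All 3 of replicate 2 were over 0.1 and the best match (0.177 to 0.406), a hint from the data. With the replicate block, 3 members were higher at 24 h (Kmt2a joined, edgeR adjusted p = 0.0407), and over all genes 2185 rose and 2015 fell at 24 h in place of 1822 and 1781. Depth limits Mllt3: at 2 to 18 counts a library, the interval of its 48 h change from ON ran from -1.54 to 0.86.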
